A study of Mus musculus with 12 samples.

Results

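The axon guidance ligands and receptors were the genes whose probes carried the name of a class 3 to 7 semaphorin, a plexin, a neuropilin, a Slit, a Robo, a netrin, Dcc, an Unc5 receptor, an ephrin or an Eph receptor. They were found by gene name, and 67 of the 19505 genes measured met this rule, with 1141 of 165865 probes. Of the 67 genes, 35 encode ligands and 32 encode receptors. RNA came from the cochleas of 4 male C57BL/6 mice with no transgene or treatment, aged 6 weeks, and each cochlea was dissected into the apical, middle and basal turns. The tissue held the organ of Corti, the spiral ganglion and the lateral wall, which includes the stria vascularis and the spiral ligament. Each turn was measured on 4 single-color Agilent exon arrays, with 25 ng of total RNA per array.

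Axon guidance genes encode cues and the receptors that read them on the growing tip of an axon. Semaphorins signal through plexins, and several secreted class 3 semaphorins need a neuropilin as co-receptor, while Sema3e binds Plxnd1 directly and Sema7a binds Plxnc1. Slits act through Robo receptors, netrins attract through Dcc and repel through Unc5 receptors, and ephrins bind Eph receptors on the neighboring cell, with signals running in both directions. In the developing cochlea such cues shape the growth of spiral ganglion neurites to the hair cells, and many of the same genes act in blood vessels and bone. The mammalian cochlea is ordered by frequency, with high tones at the base and low tones at the apex, and the comparison of turns asks which genes differ along this axis.

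The signal of a gene is the mean of its probes, in fluorescence units brought to a common 75th percentile on every array, and differences between turns are given on the log2 scale. The unscaled 75th percentile lay between 534 and 721.6, and the share of spots that the scanner software rated as well above background was 77.4% at the lowest and 81.4% at the highest. Each turn lay on a slide of its own, scanned on its own, so the turn, the slide and the scan cannot be told apart. The median SD between the arrays of a turn was 0.0977 log2 units in the apical, 0.102 in the middle and 0.11 in the basal turn over the 67 genes. For each of the 67 genes at least 1 probe passed that rating on all 12 arrays. With 4 mice and 4 arrays per turn from independent mouse samples, each mouse would have given every turn. No source says whether arrays with the same number came from the same mouse. Unless a replicate block is named, the tests below take the arrays as independent and leave such pairing out.

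Marker genes of the cell types in the tissue were measured on the same arrays. By the contrast test given below, 17.6% of all genes were higher in the apical turn and 21.6% in the basal turn. All 12 markers of spiral ganglion neurons were detected by that rating, and 8 of them were higher in the apical than in the basal turn and 1 was lower. Their summed signal lay between 31400 and 40900 in the apical turn, between 29100 and 51300 in the middle turn and between 6870 and 27900 in the basal turn. The 11 hair cell markers measured were higher in the apical turn in 10 cases, with sums of 24500 to 28200 in the apical turn and 7000 to 15100 in the basal turn, and 8 of 10 Schwann cell markers were higher there too, though 2 were higher and 2 lower with scaling to spike-in probes, described below. Markers of the lateral wall went the other way, with 8 of 9 fibrocyte markers and 7 of 9 stria vascularis markers higher in the basal turn. Among the basal arrays the neuron sum was 13400, 6870, 27900 and 10200 for replicates 1 to 4, so replicate 3 was the highest and replicate 2 the lowest. Their part in the differences described below was not tested, and in whole tissue fewer cells of a type and less RNA per cell cannot be told apart.

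**Figure D1:**
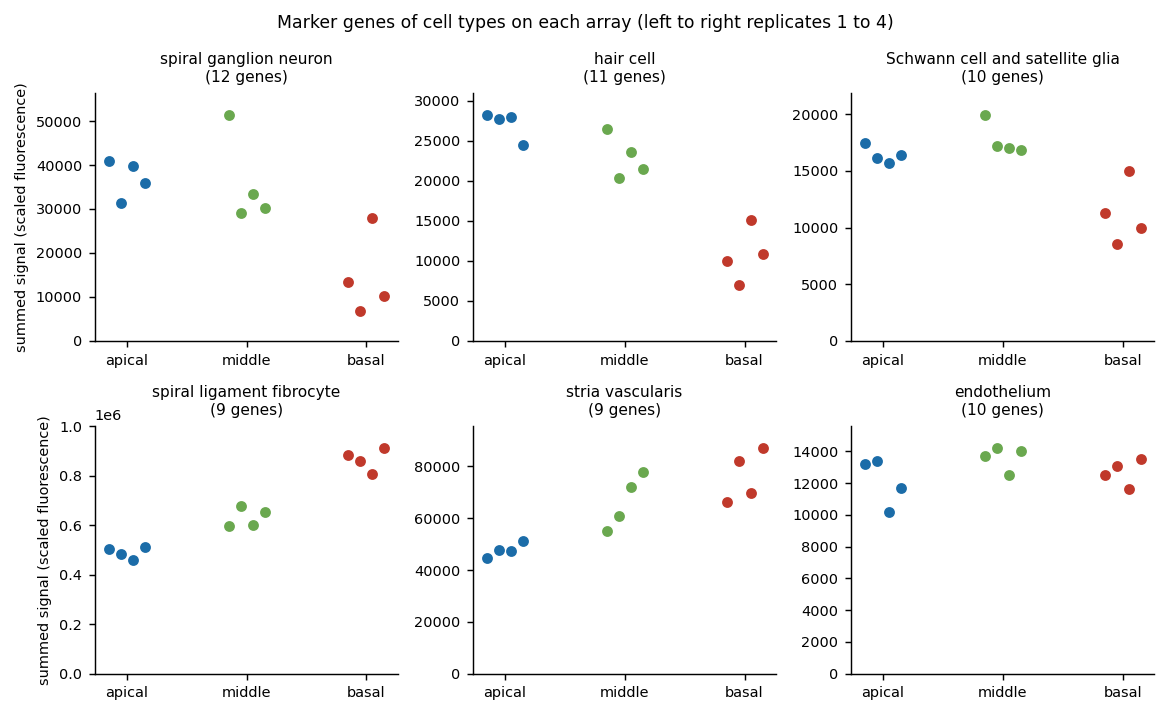
Summed signal (vertical axis, scaled fluorescence) of the marker genes of 6 cell types on each of the 12 arrays, by turn. Neuron markers lie between 6870 and 27900 on the basal arrays and between 31400 and 40900 on the apical arrays, and fibrocyte markers between 809000 and 912000 on the basal arrays and between 458000 and 514000 on the apical arrays.

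Between the apical and basal turns, 36 of the 67 genes (53.7%) were higher in the apical turn and 7 (10.4%) were higher in the basal turn, at a limma contrast p adjusted over all genes under 0.05. Of all 19505 genes, 17.6% were higher in the apical turn and 21.6% in the basal turn by the same rule. Counts by this contrast given below with no other scaling named stand against these shares. The counts depended on the scaling of the arrays: they were 30 and 15 with quantile normalization (14.9% and 25.6% of all genes), 31 and 14 with scaling to the median (11.6% and 32.2%), and 8 and 28 with scaling to the spike-in probes (4.7% and 68.7%), which detect control RNA rather than mouse genes. The last setting moved the median difference of all genes from -0.04 to -0.45. Every count given with it below therefore stands against those 4.7% and 68.7% of all genes. With the 75th percentile and with the spike-in probes, the median of the 67 genes lay 0.3 above that of all genes. That gap could not differ between these scalings, since each multiplies all genes of an array alike. It was 0.22 with quantile normalization and 0.15 with limma's normexp background correction, settings that can change it. With all 4 scalings 8 genes were higher in the apical turn: Robo2, Epha3, Unc5d, Sema3e, Sema3a, Unc5b, Epha4 and Plxna3. The same 7 genes were higher in the basal turn throughout: Ntn1, Plxnc1, Sema3c, Plxnd1, Epha7, Sema4a and Plxnb1. On all 4 arrays of the apical turn 36 genes lay above every basal array (16.9% of all genes), and 8 lay below every basal array (21.4% of all genes). A difference of 2-fold or more with an F test over the turns passed was found in 6 genes (8.96%, against 4.39% of all genes), namely Robo2, Epha3, Unc5d, Sema3e, Sema3a and Ntn1. By role, 18 of 35 ligand genes were higher in the apical turn and 3 in the basal turn, and of 32 receptor genes 18 were higher in the apical and 4 in the basal turn, while with scaling to the spike-in probes these were 2 and 14 for ligands and 6 and 14 for receptors (4.7% and 68.7% of all genes).

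**Figure D2:**
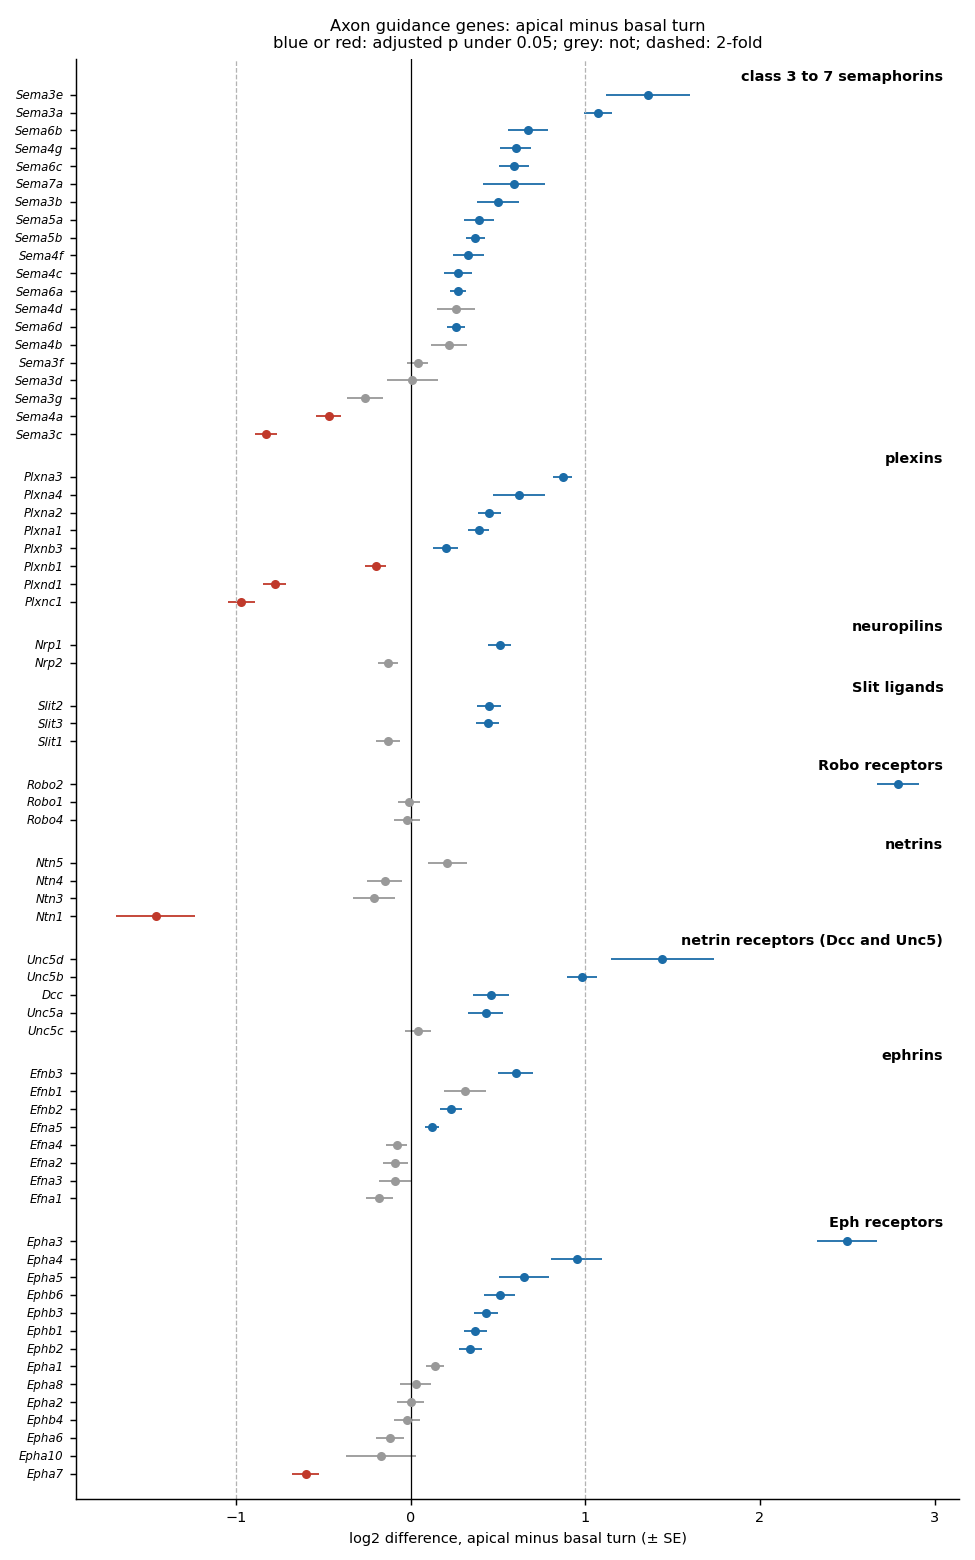
Log2 difference between the apical and basal turn (horizontal axis, apical minus basal, bars are standard errors) for the 67 genes by role. Blue and red points passed the contrast test, 36 towards the apical turn and 7 towards the basal turn with scaling to the 75th percentile, and 8 and 28 with scaling to the spike-in probes; Robo2 at 2.79 and Epha3 at 2.5 lie farthest to the right and Ntn1 at -1.46 farthest to the left.

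Robo2, a receptor for Slit proteins, differed most. Its signal was 121, 138, 110 and 104 on the apical arrays, 56.6, 46.8, 52.3 and 42 on the middle arrays and 18.7, 14.1, 18.2 and 17.2 on the basal arrays. No array of a turn overlapped the next. The log2 difference between apical and basal turn was 2.79 with a standard error of 0.122, or 6.92-fold (adjusted p = 1.2e-07), and that between middle and basal turn was 1.53 (adjusted p = 3.1e-05). In the basal turn 4 of its 27 probes were well above background on all 4 arrays. The difference was 2.92 over probes rated well above background throughout 1 turn or more. That filter keeps probes that pass only in the turn with the higher signal, so it is no test of low signals elsewhere. Over the 4 probes well above background on all 12 arrays, which include the pair of departing probes described below, the difference was 3.03-fold. Requiring all 12 arrays drops probes that are dim only in the turn with the lower signal. Values so taken, here and below, can understate a difference and are no test of the probes dropped. Over all probes the log2 difference was 1.08 with limma's normexp background correction, whose offset of 50 draws the ratios of low signals towards 1. Robo1 and Robo4, the latter a Robo receptor of endothelial cells, had apical and basal means of 484 and 487 and of 207 and 209, and did not pass the test, but with scaling to the spike-in probes they were lower in the apical turn (-0.43 and -0.44, adjusted p = 0.0022 and 0.0054).

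The Robo2 probes lie at chr16:73894653-74411156 (mm9, minus strand). The first sequence below is that of a probe with the steep fall shared by most Robo2 probes, at chr16:73933834-73933893, and the others are those of a pair of probes that departed from it, at chr16:73978732-73978791 and chr16:73958549-73958608. All were chosen after their values were seen.
Robo2 probe 19 of 27: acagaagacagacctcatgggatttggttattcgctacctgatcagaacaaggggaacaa
Robo2 probe 9 of 27: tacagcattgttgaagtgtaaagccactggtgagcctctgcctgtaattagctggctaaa
Robo2 probe 15 of 27: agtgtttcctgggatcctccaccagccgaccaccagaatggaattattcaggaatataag
Probe 19 had a mean signal of 258 ± 58.9 (SD, n = 4) in the apical, 88.8 ± 16.9 in the middle and 17.9 ± 8.96 in the basal turn. There it was not well above background on any array. With its basal signals raised to no less than the lowest signal so rated on each array, it was 9.15-fold higher in the apical turn. That floor does not cap the signal of a probe that fails the rating, so 9.15 is not a lower bound. Probe 9 had 641 ± 85.7, 520 ± 26 and 486 ± 36.2, and probe 15 had 286 ± 19.2, 202 ± 16.5 and 216 ± 12.3. These were well above background on all basal arrays.

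Slit2 and Slit3, ligands of the Robo receptors, were higher in the apical turn by 0.45 (SE 0.0691, adjusted p = 0.00049) and 0.44 (SE 0.0679, adjusted p = 0.00048), and with scaling to the spike-in probes these became 0.03 (adjusted p = 0.84) and 0.02 (adjusted p = 0.88). Slit2 ran 420, 476, 488 and 487 in the apical turn, 379, 430, 424 and 377 in the middle turn and 367, 339, 325 and 342 in the basal turn. The apical and basal arrays did not overlap. Slit3 ran 161, 168, 193 and 176 in the apical, 169, 153, 179 and 160 in the middle and 123, 134, 130 and 126 in the basal turn, and its difference was 0.28 with normexp. Slit1 had means of 33.4 and 36.5 in the apical and basal turns and did not pass the test (-0.13, adjusted p = 0.17), but it passed as higher in the basal turn with the other scalings, at -0.25 (quantile, adjusted p = 0.0037), -0.24 (median, 0.012) and -0.55 (spike-in, 0.00023).

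Among the netrins, Ntn1, a secreted cue that Dcc and Unc5 receptors read, was higher in the basal turn. Its signal was 19.3, 17.1, 36.6 and 26.8 in the apical, 23.8, 30.7, 35.5 and 29.4 in the middle and 75, 61.8, 52.9 and 76.2 in the basal turn. Every basal array lay above every apical and middle array. The difference of apical minus basal was -1.46 (SE 0.225, adjusted p = 0.00046), and -1.15 between middle and basal turn (adjusted p = 0.0057). Ntn1 had 5 probes, 1 of them well above background on all 12 arrays, and the difference was -0.58 with normexp, -1.72 over probes so rated throughout 1 turn or more, and -2.44 at that single probe. The value of -1.72 includes probe 4, which was so rated on the basal arrays alone, so it is no test of low signals elsewhere. Probe 2 of Ntn1 read 330 on apical replicate 3 and 10.1 to 13.1 on the other apical arrays, and without that array the gene's difference was -1.67. Ntn3, Ntn4 and Ntn5 did not pass, with differences of -0.21, -0.15 and 0.21, though Ntn3 was higher in the basal turn with quantile normalization (-0.4, adjusted p = 0.029), and Ntn3 and Ntn4 were with scaling to the spike-in probes (-0.63 and -0.56, adjusted p = 0.0028 and 0.0026).

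The netrin receptors went the opposite way to Ntn1: Unc5a, Unc5b, Unc5d and Dcc were higher in the apical turn, Unc5b and Unc5d with all 4 scalings and Unc5a and Dcc not with scaling to the spike-in probes, where they had 0.01 and 0.04 and Unc5c, not past the test otherwise, was lower in the apical turn at -0.37. Unc5d read 71.4, 48.1, 70.3 and 58.4 in the apical, 68.1, 33.6, 53.9 and 45.1 in the middle and 24.4, 14.3, 38.8 and 19.5 in the basal turn. The apical and basal arrays were apart, and basal replicate 3 overlapped the middle turn. The difference was 1.44 (SE 0.294, adjusted p = 0.0026), and 0.45 with normexp, with 2 of its 16 probes well above background on all basal arrays. It was 2.71-fold over all 16 probes but 1.19-fold over the 2 that were well above background on all 12 arrays. Those 2, probes 1 and 13, were its brightest in the basal turn, at 214 and 91.8. The filter drops probes that are dim in the basal turn alone, so 1.19 does not stand for the rest. Unc5b read 150, 146, 127 and 132 in the apical, 93.4, 82.3, 96.2 and 92.5 in the middle and 78.4, 62.4, 65.8 and 75.4 in the basal turn. Its 3 turns did not overlap, and the differences were 0.98 between apical and basal turn (SE 0.0872, adjusted p = 1.3e-05) and 0.61 between apical and middle turn (adjusted p = 0.0029), the former 0.44 with normexp. Between apical and basal turn it was 1.97-fold over all probes and 1.53-fold over the 9 rated well above background on all 12 arrays. Dcc was close to background, with 21 of its 27 probes not well above it on any basal array and 18 not on any apical array. It was 1.37-fold higher in the apical turn over all probes and 1.09-fold over the 3 rated well above background on all 12 arrays. Unc5c had means of 121 and 118 and did not pass.

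Of the 20 semaphorins, 13 were higher in the apical turn and 2, Sema3c and Sema4a, in the basal turn, which scaling to the spike-in probes turned to 2 and 5 (4.7% and 68.7% of all genes). Sema3e read 539, 440, 518 and 433 in the apical, 696, 430, 474 and 412 in the middle and 182, 134, 311 and 163 in the basal turn. The basal arrays lay below all others. The difference between apical and basal turn was 1.36 (SE 0.239, adjusted p = 0.0011), between middle and basal turn 1.39 (adjusted p = 0.0031) and between apical and middle turn -0.03 (adjusted p = 0.94). Sema3a, a secreted repellent, read 166, 157, 157 and 157 in the apical, 105, 95.8, 95.6 and 89.4 in the middle and 72.5, 68.9, 73 and 89.8 in the basal turn. It fell mainly between the apical and middle turns, by 0.72 (adjusted p = 0.00067), and the whole difference was 1.07 (SE 0.0806, adjusted p = 4.1e-06), or 0.58 with normexp. Sema3c, a class 3 semaphorin of the same chromosome, read 69, 77.5, 70.5 and 69.7 in the apical, 80.6, 94.5, 83.6 and 84.8 in the middle and 135, 127, 119 and 129 in the basal turn, with a difference of -0.83 (SE 0.0641, adjusted p = 4.9e-06), or -0.44 with normexp. Like every gene described here beyond the 13 in the plot of signals by array, it was chosen after its values were seen.

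Representative probes of Sema3e (chr5:14224347-14224406) and Sema3a (chr5:13561801-13561860), both on the plus strand of mm9, are given beside a Sema3a probe at chr5:13581090-13581149 that did not follow its gene.
Sema3e probe 6 of 16: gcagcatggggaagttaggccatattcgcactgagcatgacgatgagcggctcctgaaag
Sema3a probe 10 of 16: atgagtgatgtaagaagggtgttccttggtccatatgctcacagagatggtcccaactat
Sema3a probe 13 of 16: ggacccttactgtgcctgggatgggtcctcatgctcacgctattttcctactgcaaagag
Sema3e probe 6 had mean signals of 968 ± 131 (SD, n = 4), 962 ± 223 and 350 ± 143 in the apical, middle and basal turns, Sema3a probe 10 had 247 ± 7.11, 134 ± 15.8 and 109 ± 15.5, and Sema3a probe 13 had 532 ± 23.3, 449 ± 21.7 and 539 ± 39.

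The F test over the turns was passed by 43 of the 67 genes (38.7% of all genes), and by all 8 plexins, 5 higher in the apical turn and 3 in the basal turn, and with scaling to the spike-in probes 1 and 3. Plxna3, a receptor used with neuropilins by class 3 semaphorins, read 72, 74.8, 73.3 and 67.4 in the apical, 45.8, 44.9, 52 and 48.1 in the middle and 39.5, 39.4, 38.4 and 40.1 in the basal turn. The turns did not overlap, and the difference was 0.87 (SE 0.0555, adjusted p = 1.4e-06), or 0.28 with normexp, with 10 of its 32 probes not well above background on any basal array. It was 1.83-fold over all probes and 1.36-fold over the 15 that were well above background on all 12 arrays. Plxnc1, the receptor of Sema7a, read 157, 151, 159 and 166 in the apical, 190, 218, 217 and 221 in the middle and 312, 352, 275 and 305 in the basal turn. The turns did not overlap, with -0.42 for apical minus middle, -0.55 for middle minus basal and -0.97 for apical minus basal (SE 0.0771, adjusted p = 6e-06), and all 28 of its probes were higher in the basal turn. Plxnd1, the receptor of Sema3e, read 413, 439, 403 and 426 in the apical, 451, 526, 505 and 516 in the middle and 732, 729, 655 and 781 in the basal turn. Its difference was -0.78 (SE 0.0667, adjusted p = 9.7e-06), and it was higher in the basal turn at all 35 probes. The 2 ligands of these receptors ran the other way, Sema3e as above and Sema7a with apical, middle and basal means of 1370 ± 144, 1450 ± 276 and 925 ± 251 (SD, n = 4). The Sema7a difference was 0.59 (adjusted p = 0.02), and 0.18 with scaling to the spike-in probes (adjusted p = 0.38). Its apical and basal arrays overlapped, with basal replicate 3 at 1290 and the lowest apical array at 1190. A Plxnc1 probe at chr10:94306816-94306875 (minus strand) stands for its gene.
Plxnc1 probe 13 of 28: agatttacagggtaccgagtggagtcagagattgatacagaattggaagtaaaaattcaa
Its mean was 379 ± 28.9 in the apical, 518 ± 42.9 in the middle and 860 ± 109 in the basal turn.

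Nrp1, a co-receptor of class 3 semaphorins and of vascular endothelial growth factor, read 462, 494, 441 and 488 in the apical, 468, 479, 428 and 445 in the middle and 352, 303, 351 and 320 in the basal turn. The basal arrays lay below all others (0.51, SE 0.0648, adjusted p = 0.00014), a difference that was 0.09 with scaling to the spike-in probes (adjusted p = 0.34). Nrp2 read 246 to 284 in the apical and 284 to 309 in the basal turn, and at -0.13 did not pass (adjusted p = 0.089), but it passed as higher in the basal turn with the other scalings, at -0.21 (quantile, adjusted p = 0.006), -0.25 (median, 0.0038) and -0.55 (spike-in, 0.00095).

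Among the 14 Eph receptors, 7 were higher in the apical turn and 1 in the basal turn, which scaling to the spike-in probes turned to 2 and 7 (4.7% and 68.7% of all genes). Epha3, a receptor that binds A-class ephrins, read 170, 199, 208 and 192 in the apical, 48.4, 60.5, 85.3 and 70.8 in the middle and 43.2, 29.9, 28.8 and 35.5 in the basal turn. The apical arrays lay far above the rest, with a difference to the middle turn of 1.57 (SE 0.171, adjusted p = 0.00059) and to the basal turn of 2.5 (SE 0.171, adjusted p = 2.2e-06). The latter was 5.66-fold over all 17 probes, of which 7 were well above background on all basal arrays. It was 4.07-fold over the 7 probes so rated on all 12 arrays, and on the log2 scale it was 1.22 with normexp. Those 7 probes include probes 1 and 2, with log2 differences of 0.39 and 0.03. The rest of them, probes 13 to 17, had 2.45, 3.03, 2.71, 2.85 and 2.71. Epha4 read 346, 299, 369 and 285 in the apical, 352, 259, 305 and 241 in the middle and 167, 147, 209 and 152 in the basal turn (0.95, SE 0.144, adjusted p = 0.00042). Epha7 ran the opposite way, with 462, 453, 551 and 465 in the apical, 507, 569, 523 and 480 in the middle and 732, 722, 678 and 785 in the basal turn (-0.6, SE 0.0774, adjusted p = 0.00016).

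Epha3 probes show a split. A probe at chr16:63583219-63583278 fell as most did, and one at chr16:63843932-63843991 near the start of the gene (both on the minus strand) had like signals at both ends of the cochlea.
Epha3 probe 13 of 17: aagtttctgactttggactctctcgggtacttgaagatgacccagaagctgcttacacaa
Epha3 probe 2 of 17: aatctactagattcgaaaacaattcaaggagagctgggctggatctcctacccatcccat
Probe 13 had 256 ± 27.6 in the apical, 76.3 ± 10.8 in the middle and 47.2 ± 8.84 in the basal turn, and probe 2 had 135 ± 17.5, 108 ± 13.5 and 132 ± 14.2. Probe 1, the first along the gene, departed from most too, with 270 ± 7.25, 240 ± 24.2 and 207 ± 15.6.

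Of the 8 ephrins, 3 were higher in the apical turn and 0 in the basal turn by limma (4 and 1 at an unadjusted p under 0.05), which became 1 and 2 with quantile normalization, 1 and 3 with scaling to the median and 0 and 5 with scaling to the spike-in probes (4.7% and 68.7% of all genes). Efnb3, a transmembrane ephrin, read 40.8, 38.2, 50.5 and 40.4 in the apical, 37.8, 32.8, 33.9 and 37.7 in the middle and 31.8, 27, 27.7 and 25.3 in the basal turn (0.6, SE 0.098, adjusted p = 0.00067), and 0.18 with scaling to the spike-in probes (adjusted p = 0.19) and 0.2 with normexp. Of its 5 probes, 1 was well above background on all 12 arrays, with a difference of 1.51. The others ran from -0.16 to 0.95. Efnb2 and Efna5 were lowest in the middle turn, with apical, middle and basal means of 289, 229 and 247 and of 275, 237 and 253, and both passed the apical to middle contrast (adjusted p = 0.0091 and 0.0087).

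**Figure D3:**
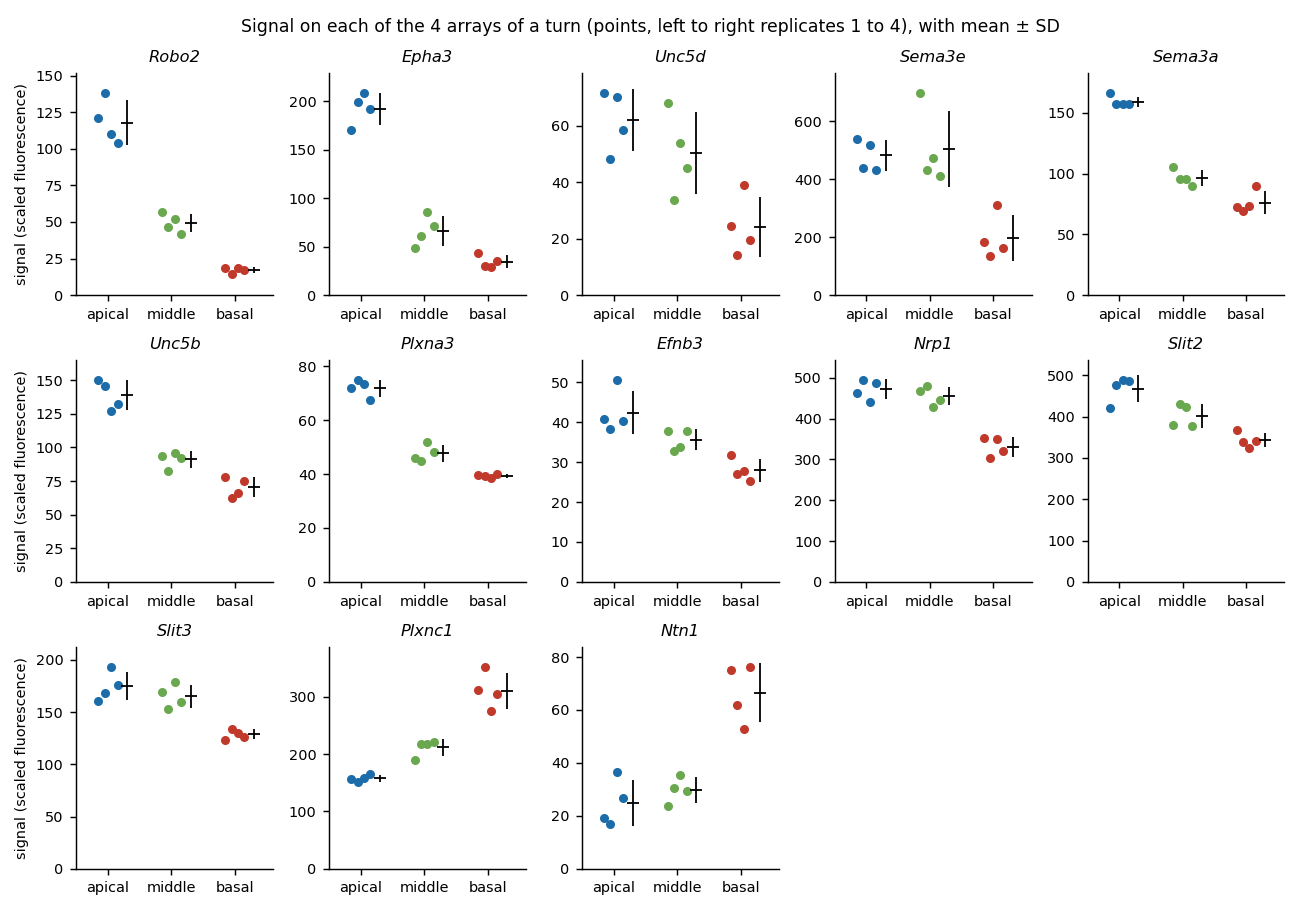
Signal (vertical axis, scaled fluorescence) of 13 named genes on each of the 12 arrays by turn, with mean and SD beside the points. Robo2, Epha3, Sema3a, Unc5b and Plxna3 fall from turn to turn with no overlap between apical and basal arrays, Sema3e is level in the apical and middle turns, and Plxnc1 and Ntn1 are highest in the basal turn.

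Steps between neighboring turns were not alike. Between the apical and middle turns 8 genes were higher in the apical turn (4.42% of all genes were) and 3 in the middle turn (7.61%), and 2, Robo2 and Epha3, passed with 2-fold (0.436%). Between the middle and basal turns 28 had the higher signal in the middle turn (11.6%) and 7 had it at the base (9.23%), of which 4 passed with 2-fold (2.66%). With scaling to the spike-in probes the 28 and 7 became 5 and 18, and without basal replicate 2, the array with the lowest neuron sum, the 28 became 17. Among the 43 genes past the apical to basal contrast, the middle turn was nearer the apical than the basal turn in 35 (81.4%), against 58.1% of 7645 genes past it. The larger step was that from middle to basal in 35 of the 43 and from apical to middle in 8: Efna5, Efnb2, Epha3, Plxna2, Plxna3, Sema3a, Sema5a and Unc5b. In 12 of the 36 genes higher in the apical turn, among them Sema3e, Unc5d, Epha4 and Sema7a, basal replicate 3 was the highest and replicate 2 the lowest basal array, as for the neuron markers, a share of 33.3% against 34.8% of all genes higher in the apical turn. Robo2, Epha3 and Sema3a did not have this order, though replicate 2 was the lowest basal array for Robo2 (14.1) and Sema3a (68.9).

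**Figure D4:**
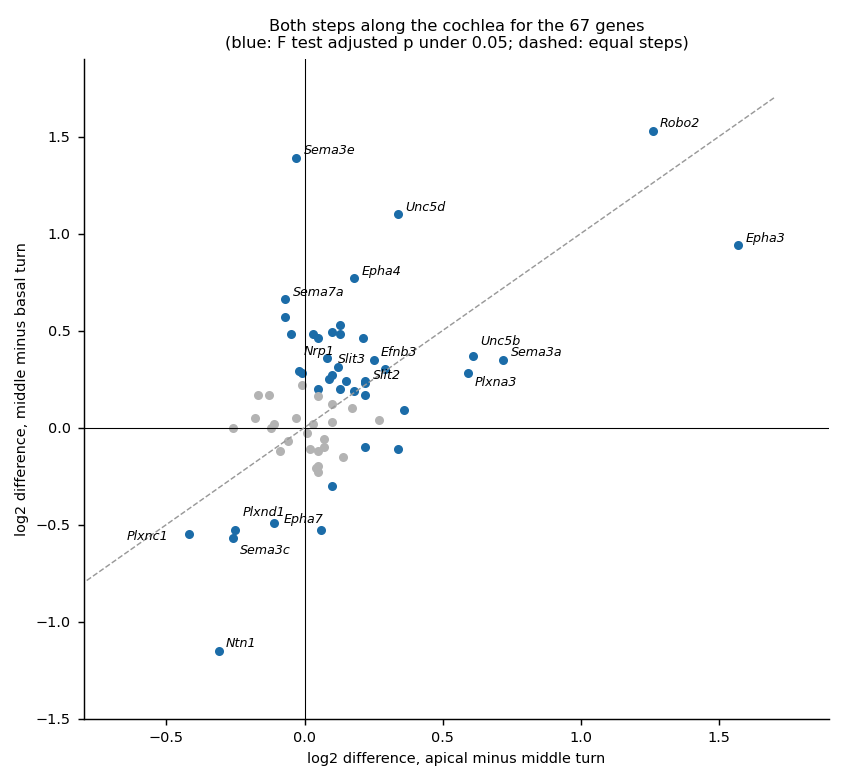
Log2 difference of apical minus middle turn (horizontal axis) against middle minus basal turn (vertical axis) for the 67 genes, blue where the F test over the turns passed. In 35 of the 43 genes past the contrast the vertical value is the larger in size, with Sema3e at -0.03 and 1.39, while Epha3, Sema3a, Unc5b and Plxna3 lie to the right of the dashed line of equal steps.

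Exon probes of a gene did not always agree. Among the 837 probes of 63 of the 67 genes that were well above background on all 12 arrays, each probe was set against the average over the other such probes for that gene, and called where the limma F test over the turns passed and the deviation differed by 1 log2 unit or more between turns. It called 12 probes (1.43%, against 0.593% of all probes tested) in 7 genes (11.1%, against 4.18% of genes tested). The genes were Robo2 and Epha3 with 3 probes each, Plxna3 with 2, and Sema3a, Sema3e, Sema5b and Plxna1 with 1 each. Probe 26 of Robo2 (3.45) and probe 14 of Epha3 (3.03) fell much as the median probe of their genes did (3.1 and 2.71), and were called against the few probes tested there (4 and 7), which include the flat ones. In Plxna1 and Plxna3 a probe ran against its gene, at chr6:89293963-89294022 (minus strand) and at chrX:71582367-71582426 (plus strand).
Plxna1 probe 3 of 31: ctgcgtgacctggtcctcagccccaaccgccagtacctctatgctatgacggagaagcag
Plxna3 probe 16 of 32: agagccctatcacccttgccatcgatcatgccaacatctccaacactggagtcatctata
The Plxna1 probe had 3800 ± 388 (SD, n = 4) in the apical, 5530 ± 1310 in the middle and 7620 ± 842 in the basal turn, while the gene had a difference of 0.39 (adjusted p = 0.00043). The Plxna3 probe had 1140 ± 24.4, 1410 ± 110 and 1620 ± 161. What these probes bind other than the exon they were designed for was not tested.

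**Figure D5:**
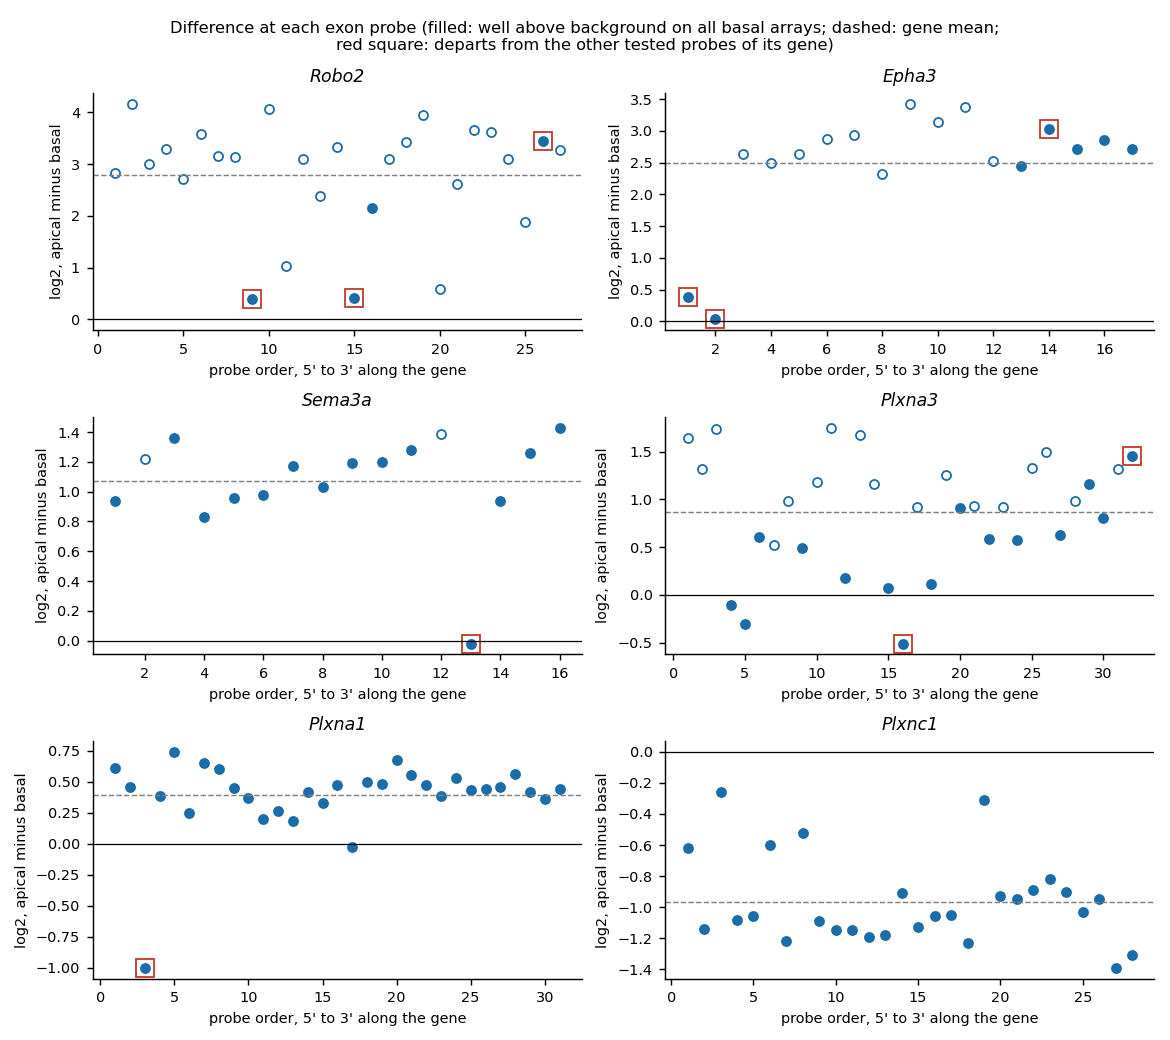
Log2 difference of apical minus basal turn (vertical axis) at each probe of 6 genes in order along the gene (horizontal axis), filled where the probe was well above background on all basal arrays. Red squares mark the probes called as departing from the other tested probes of their gene. Among them, probes 9 and 15 of Robo2 lie at 0.39 and 0.41 and probes 1 and 2 of Epha3 at 0.39 and 0.03, below the gene means of 2.79 and 2.5.

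Other genes of the same processes were described from lists. Their counts stand against 17.6% of all genes higher in the apical turn and 21.6% in the basal turn. Of 27 other guidance ligands and receptors measured, 16 were higher in the apical turn and 3 in the basal turn (8 and 8 with scaling to the spike-in probes), with a median difference of 0.59 against -0.04 for all genes. Slitrk6, a membrane protein of hair cell innervation, was 3.98-fold higher in the apical turn (258 ± 38.3 against 66 ± 16.4, adjusted p = 2e-05), Ntng1, a netrin family member tied to the membrane, 2.83-fold (adjusted p = 0.0098) and Lrrc4, a netrin-G ligand, 2.33-fold (adjusted p = 0.013). Slitrk6 and Lrrc4 had 1 probe each. The basal arrays varied widely for Ntng1 (43.4 ± 31.6) and Lrrc4 (115 ± 69.2). Of 56 genes of guidance signalling inside the cell, 24 were higher in the apical and 11 in the basal turn (9 and 31 with scaling to the spike-in probes; median 0.11), among them Dpysl2, a collapsin response mediator of semaphorin signals, at 2.49-fold (2700 ± 91.7 against 1090 ± 162, adjusted p = 3.1e-06). Of 21 adhesion molecules of axons, 16 were higher in the apical and 1 in the basal turn (9 and 4 with scaling to the spike-in probes; median 0.64), with Opcml at 4.09-fold (adjusted p = 1.5e-05) and Chl1 at 3.43-fold (adjusted p = 4.6e-06).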

How the data were processed

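Fluorescence intensities were deposited by the authors, made from scans with Agilent Feature Extraction 10.7.3.1; the processed signal has its background subtracted and no normalization between arrays. The deposited value table holds the same intensities. Probe positions are on mm9. Control spots (7914 of 180880) and 622 spots flagged as uneven or deviating were left out. Arrays were multiplied to a 75th percentile of 640.8, repeated spots and then the probes of a gene were averaged on the log2 scale, and turns were compared with limma 3.58.1 (R 4.3.3) in 1 fit to the 12 arrays, and p-values were adjusted by Benjamini-Hochberg over 19505 genes. Named genes were those past 2-fold, the leading gene of each role by p and by size, and the 5 with the smallest p for a probe departing from its gene; alternatives in scaling, background correction, low signals, probe summary, test and arrays are in the closing section. Members and lists were chosen with earlier results of these data known. Of the remaining marker lists, supporting cell markers were higher in the apical turn in 5 of 10 cases (basal 3), endothelium 2 of 10 (5), pericyte 1 of 8 (5), macrophage 0 of 10 (7), bone 1 of 10 (2), erythroid 0 of 6 (0; 1 and 0 at an unadjusted p under 0.05) and skeletal muscle 1 of 8 (3). Scripts were tested on simulated data. Per the study the 4 arrays of a turn came from independent mouse samples.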

Additional observations from a re-analysis of the deposited data

Results flagged for a closer look

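In 39 groups of 4 arrays (13 named genes in 3 turns), 3 had an array far from the others by Dixon's ratio of gap to range, of which chance marks about 1 in 20. Sema3a in the apical turn had a ratio of 0.968 (replicate 1 at 166, the others at 157), Plxnc1 in the middle turn 0.862 (replicate 1 at 190, the others at 217 to 221), and Slit2 in the apical turn 0.841 (replicate 1 at 420, the others at 476 to 488).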

How the results depend on the processing

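Counts moved with the scaling, the background correction, the value added to low signals and the probe filter. Genes higher in the apical than the basal turn numbered 36 and were 8 with spike-in scaling; those higher in the basal turn numbered 7 and were 15 with quantile normalization, 14 with scaling to the median and 28 with spike-in scaling. Genes past 2-fold numbered 6, and were 3 with normexp and 3 with 16 added to each signal. Between apical and middle turn, the 8 higher in the apical turn became 5 with spike-in scaling, the 3 higher in the middle turn became 5 with scaling to the median and 6 with spike-in scaling, and the 2 past 2-fold became 0 with normexp and 1 with 16 added. Between middle and basal turn, the 28 became 18 with quantile normalization and 5 with spike-in scaling, the 7 became 18 with spike-in scaling, and the 4 past 2-fold became 1 with normexp and 1 with 16 added. Member probes called numbered 12, and were 5 with normexp and 26 with all probes, in 7 genes, 4 and 15. Leaving out 1 array gave 34 to 36, 6 to 9 and 6 to 8 for the apical against basal counts, 8 to 9, 1 to 3 and 2 to 2 for apical against middle, and 17 to 29, 7 to 8 and 3 to 5 for middle against basal, with 17 without basal replicate 2, and with 1 without apical replicate 1 or 3 or middle replicate 2 or 4. Probes called ran from 8 to 16 in 5 to 11 genes, with 11 without basal replicate 3. Under spike-in scaling Efnb3, Nrp1, Slit2 and Slit3 lost their call (0.18, 0.09, 0.03 and 0.02). The middle to basal difference of Ntn1 was -0.85 (adjusted p = 0.16) with the median of its probes, and that of Unc5d lost its call with the arrays of those turns alone (adjusted p = 0.055), without middle replicate 1 (0.067), basal replicate 2 (0.061) or basal replicate 4 (0.061). The cause was not tested. With the array number as a replicate block the apical against basal counts were 38, 9 and 6; the mean r between deviations was 0.0949 for same-numbered arrays, with 6 of 12 pairs over 0.1, and -0.0313 for the others, with 2 of 36 over 0.1. Not every same-numbered pair was over 0.1 and no label ties numbers to mice, so whether the numbers pair the arrays is unknown. Probes near background enter the folds of Robo2, Epha3, Unc5d, Unc5b, Plxna3, Efnb3, Ntn1 and Dcc. Over the probes well above background on all 12 arrays, Efnb3 was 2.85-fold higher in the apical turn, against 1.52-fold over all its probes. The apical signal of Ntn1 was 0.184 of the basal one, against 0.363. These differences were larger, and those of the other genes named were smaller. Why they changed was not tested.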
